A study of Caenorhabditis elegans with 2 samples.

Results

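AP2 is the adaptor complex that links clathrin to cargo proteins and lipid at the plasma membrane during endocytosis. It has 4 kinds of subunit: the large alpha and beta chains, of which alpha binds membrane lipid and beta binds clathrin, the medium mu chain, which recognises tyrosine-based sorting signals in cargo, and the small sigma chain, which takes part in dileucine signal binding and holds the core together. In *C. elegans* these are encoded by *apa-2* (alpha), *apb-1* (beta), *dpy-23* (mu) and *aps-2* (sigma), and *apb-1* also supplies the beta chain of the Golgi and endosome adaptor AP1. These 4 of the 19985 annotated protein-coding genes are described here for their recovery with the protein MADF-2. The genes belong together by function, but *dpy-23* was chosen by its signal value, which was known to be among the highest of any promoter. The signal values and ranks below are therefore descriptions, and no test was made on them.

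The chromatin came from whole late embryos of both sexes, collected 3 hours after synchronisation by bleaching, of *C. elegans* strain OP587 with the genotype unc-119(tm4063) III; wgIs587. These worms stably express MADF-2 with GFP-FLAG fused to its C-terminus from an inserted transgene, whose promoter the labels do not name, and chromatin was immunoprecipitated with an antibody against GFP. MADF-2 carries the MADF domain, a DNA-binding fold. There were 2 biological replicates of 1 group, so no treated or untagged group stands beside them, and the control libraries were not analysed here. Whole embryos mix all cell types, so the cells a signal came from cannot be told apart. The authors listed 30000 candidate regions in replicate 1, 27350 in replicate 2 and 30000 when the replicates were pooled. Their reproducibility filter (IDR, the irreproducible discovery rate) left 772 regions, here called optimal, which were the 772 pooled regions of highest signal. The signal value is the authors' own score per region on a scale that the sources used here do not give, and read depth is unknown, so values were ranked within a list and not compared between lists. For each gene, all regions were taken that overlapped the stretch from 2 kb upstream of its annotated 5′ end to its 3′ end. No region of any of the 4 lists lay in that stretch of *madf-2* itself, the tagged gene.

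MADF-2 was recovered at the promoters of the mu, beta and alpha subunit genes but not, above the authors' threshold, at that of the sigma subunit gene. The 4 stretches held 13 pooled regions, of which 3 were optimal, 1 each at *dpy-23*, *apb-1* and *apa-2*, against 2.57% of all pooled regions. They held 13 regions of the replicate 1 list and 12 of the replicate 2 list. By gene, 3 of 4 held an optimal region, against 5.12% of all protein-coding genes under the same rule. All of these 3 optimal summits also fell in a narrower promoter window, from 1000 bp before to 200 bp past the 5′ end. Such a window held an optimal summit in 2.81% of protein-coding genes. The summit at *apb-1* also fell in the promoter window of *mdt-19*, and that at *dpy-23* in an exon of the noncoding RNA gene *R160.8*. *dpy-23*, *apa-2* and *aps-2* lie on chromosome X, where 5.71% of genes held an optimal region. Longer stretches can hold more regions. Among genes with a stretch of similar length, an optimal region occurred in 7.0% for *dpy-23* (6.445 kb), 6.39% for *apa-2* (6.226 kb), 9.47% for *apb-1* (15.064 kb) and 3.57% for *aps-2* (2.984 kb). Because the set was proposed with the value of *dpy-23* known, these counts say nothing about AP2 genes as a class.

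The sequences under the strongest pooled region of *dpy-23*, *apa-2* and *aps-2* follow, read from the RefSeq sequence of assembly WBcel235 (ce11), 5′ to 3′ on the strand of the gene. They are shown because the 3 promoters differ in base composition and in repeats of GA, which are described after the signal values. The first is the whole 290 bp region of *dpy-23*, chrX:4388952-4389241 on the plus strand, with its summit at base 156. The others are 300 bp centred on the summit (base 151): chrX:9337895-9338194 on the plus strand for *apa-2*, and chrX:4457924-4458223 on the plus strand for *aps-2*. None of them overlaps an annotated UTR. Capitals mark every match on either strand to one of 7 short motifs listed further on; CTCTC is GAGAG read on the other strand.
dpy-23: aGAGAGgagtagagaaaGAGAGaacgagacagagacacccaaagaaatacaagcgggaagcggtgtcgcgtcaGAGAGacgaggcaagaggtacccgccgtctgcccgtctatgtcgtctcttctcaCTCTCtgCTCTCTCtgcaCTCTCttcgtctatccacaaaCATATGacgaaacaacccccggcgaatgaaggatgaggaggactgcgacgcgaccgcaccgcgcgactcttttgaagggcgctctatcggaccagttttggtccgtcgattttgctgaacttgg
apa-2: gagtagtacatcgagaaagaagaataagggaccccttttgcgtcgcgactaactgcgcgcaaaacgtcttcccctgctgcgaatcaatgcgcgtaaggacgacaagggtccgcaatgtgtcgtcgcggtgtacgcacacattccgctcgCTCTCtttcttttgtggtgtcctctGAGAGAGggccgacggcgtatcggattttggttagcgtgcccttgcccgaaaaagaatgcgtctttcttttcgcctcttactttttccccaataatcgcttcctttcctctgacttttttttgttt
aps-2: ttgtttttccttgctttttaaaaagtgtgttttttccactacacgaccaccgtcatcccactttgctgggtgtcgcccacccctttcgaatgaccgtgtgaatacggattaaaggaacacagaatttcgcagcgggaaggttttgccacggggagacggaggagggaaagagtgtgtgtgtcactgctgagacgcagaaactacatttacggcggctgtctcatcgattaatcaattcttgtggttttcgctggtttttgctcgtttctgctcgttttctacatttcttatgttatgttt

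*dpy-23*, the mu subunit gene (WBGene00001082, chromosome X from 4389359 to 4393803, plus strand), had the strongest region of the 4. Its promoter region had a signal value of 304 in the pooled list, rank 21, above 99.93% of the listed regions. In replicate 1 the overlapping region had a signal value of 171 (rank 21), and in replicate 2 one of 138 (rank 36). It thus stood near the top of both replicate lists. The summit lay 252 bp upstream of the 5′ end in the pooled list, 233 bp in replicate 1 and 255 bp in replicate 2. Both annotated transcripts start within 6 bp of each other just downstream of it. The summit also falls in the exon of *R160.8* (WBGene00197667, chromosome X from 4388975 to 4389314), an annotated noncoding RNA gene on the opposite strand, 207 bp inside from that gene's 5′ end. The nearest 5′ end of another protein-coding gene, *lst-2*, was 5741 bp from the summit.

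The region at *dpy-23* was also narrower than the common width. It spanned 290 bp in the pooled list, 219 bp in replicate 1 and 116 bp in replicate 2, while 628 of the 772 optimal regions had the common width of 396 bp. Among the 772 strongest regions of replicate 2, 6 were narrower. In the pooled list 118 of the 772 were narrower, so a narrow region was not rare there. The promoter regions ranked just above and just below it, named in the next paragraph, were all narrower than 290 bp in that list. Its pooled width was thus not particular to it among promoter regions of similar rank. The strongest regions of the other 3 genes had the common width in each list.

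Ranked among the 409 optimal regions with a summit in a protein-coding promoter, that of *dpy-23* was number 9. Just above it stood the shared region of *tasp-1* and *K01G5.10* (signal value 324) and that of *T02E1.2* (317), and just below it those of *rpl-3* (294) and of *ears-2* and *uncp-18* (275). Counted by gene, *dpy-23* was number 27 of the 13114 protein-coding genes with any pooled region in the stretch, where neighbouring genes can share a region. Within 20 kb of its summit there were 12 other pooled regions, and the strongest of them had a signal value of 52.8 and lay 6.48 kb away. The nearest other optimal summit was 55.2 kb away (signal value 116), against 41.3 kb for *apa-2* and 20.4 kb for *apb-1*, which had 5 and 8 other pooled regions within 20 kb.

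Further along *dpy-23* the candidate regions were weak and shifted between lists. A region in an exon, 2408 bp downstream of the 5′ end, had a pooled signal value of 38.5 (rank 4232), with 26.8 (rank 3237) in replicate 1 and 11.0 (rank 26454) in replicate 2. A region 1631 bp upstream had 24.3 in the pooled list and 14.6 in replicate 2, and was not listed in replicate 1. The remaining ones were listed in 1 replicate each: replicate 1 had 2 more, with values of 19.9 and 11.7 inside the gene, and replicate 2 had 1 at the 3′ end, with a value of 10.9.

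*apb-1*, the beta subunit gene (WBGene00000160, chromosome III from 2583971 to 2597034, minus strand), came next. Its promoter region had a pooled signal value of 107 (rank 295, above 99.02% of regions). It had 62.3 (rank 267) in replicate 1 and 44.5 (rank 459) in replicate 2, so it was among the 772 strongest of either replicate. The summit lay 221 bp upstream in the pooled list, 171 bp in replicate 1 and 245 bp in replicate 2. The region lies between 2 genes that point away from each other: the summit was 798 bp upstream of *mdt-19*, which encodes a subunit of the Mediator complex, so it falls in the promoter windows of both genes. Which of them the recovery belongs to cannot be told apart from these lists.

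The other 5 pooled regions of *apb-1* had signal values from 17.8 to 28.3. The highest, 28.3, and the lowest, 17.8, had summits in exons of *gpa-17*, a G protein alpha subunit gene that lies inside *apb-1* on the other strand. A further one, at 24.4, lay in an exon of *mdt-19*, 1055 bp upstream of *apb-1*. All 5 were far below the lowest optimal value of 69.6. Beside the promoter region, replicate 1 listed 5 regions with values from 11.4 to 20.7, 4 of them around *gpa-17*, and replicate 2 listed 2, with values of 15.2 and 12.9.

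*apa-2*, the alpha subunit gene (WBGene00000161, chromosome X from 9338675 to 9342900, plus strand), had an optimal region close to the threshold and farther from the gene. The region, from 9337847 to 9338242, had a pooled signal value of 78.0 (rank 597, above 98.01% of regions). It had 40.4 (rank 798) in replicate 1, just outside the 772 strongest of that list, and 39.6 (rank 598) in replicate 2. It was also outside the stronger 386 of the optimal regions. The summit was 630 bp upstream in the pooled list and in replicate 1, and 675 bp in replicate 2. No annotated gene covers it, and the nearest 5′ end of another gene, *T20B5.2*, was 6883 bp away. The lowest signal value inside the optimal list was 69.6 and the highest outside it 69.5. The only other pooled region of *apa-2*, in an intron 1051 bp downstream, had a value of 20.3 (rank 23326). Replicate 1 listed nothing else there, and replicate 2 listed 2 more regions, with values of 15.1 at 444 bp upstream and 19.1 in an exon 874 bp downstream.

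*aps-2*, the sigma subunit gene (WBGene00000157, chromosome X from 4458272 to 4459255, plus strand), held no optimal region. It had 2 pooled regions of similar and modest strength. The one with its summit 198 bp upstream had 32.7 in the pooled list (rank 7104, above 76.32% of regions), 14.4 (rank 19331) in replicate 1 and 16.7 (rank 9325) in replicate 2. The one in an intron, 451 bp downstream, had 29.6 in the pooled list (rank 9545), 18.9 (rank 10138) in replicate 1 and 12.4 (rank 20527) in replicate 2. The order of the 2 thus turned between replicates, the intron region being the stronger in replicate 1 and the promoter region in replicate 2. The nearest optimal summit, with a signal value of 116, lay 13.8 kb away, between *aps-2* and *dpy-23*, whose 5′ ends are 68.9 kb apart. A region outside the optimal list is neither evidence of binding nor of its absence, as the lists also hold background.

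**Figure D1:**
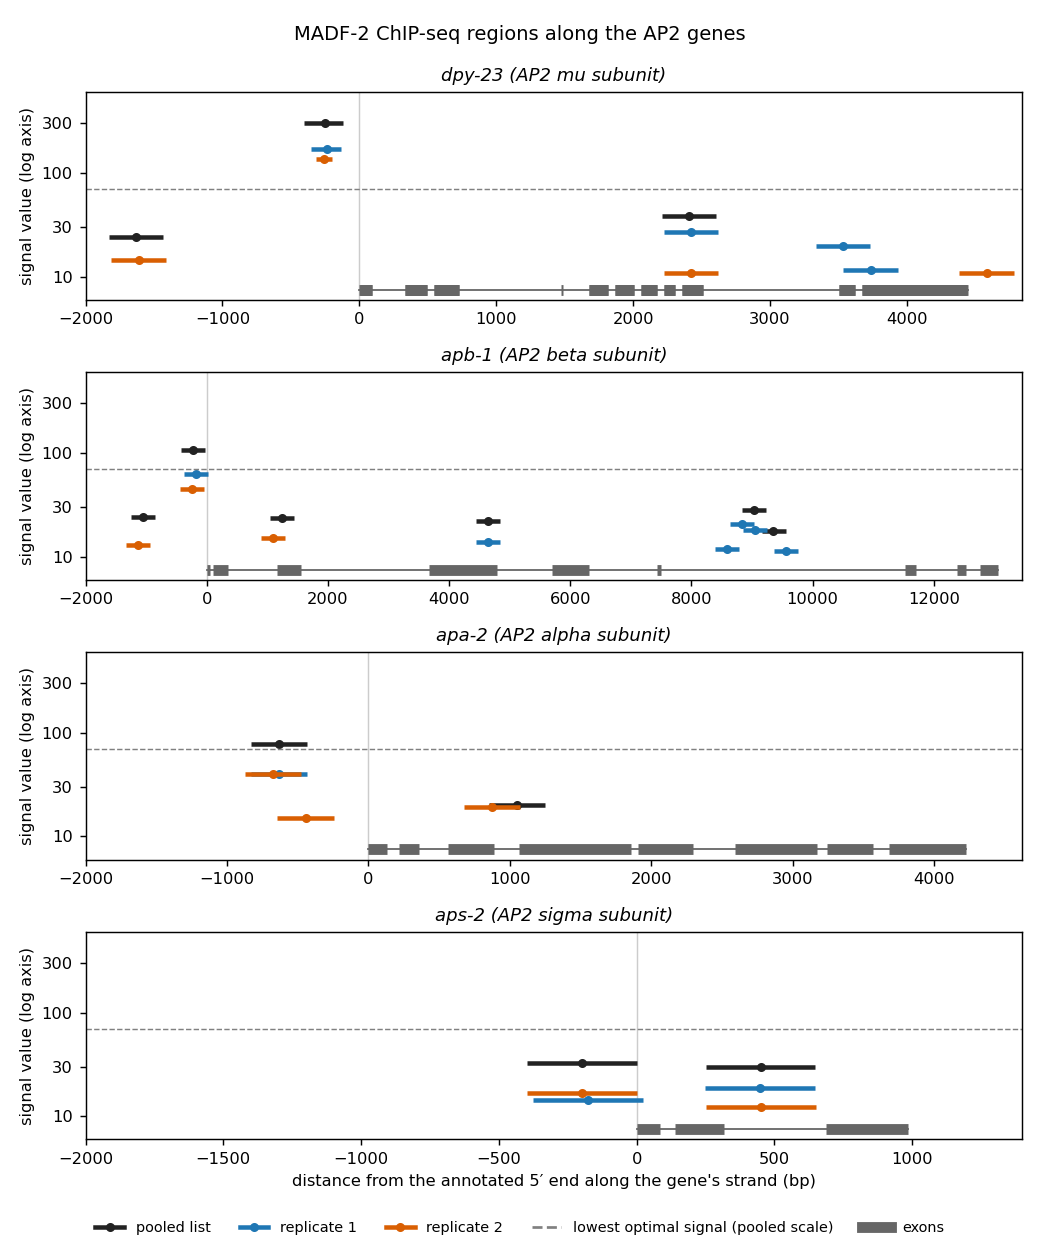
Regions listed in the pooled list (black), replicate 1 (blue) and replicate 2 (orange) along each AP2 gene: the x axis is the distance in bp from the annotated 5′ end, the y axis the authors' signal value on a log axis, bars span the regions, dots are summits, grey boxes are exons, and the dashed line is the lowest optimal signal value, 69.6, which applies to the pooled list. The pooled region upstream of *dpy-23* stands at 304, those of *apb-1* and *apa-2* at 107 and 78.0, and all other pooled regions lie at 38.5 or below.

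Of the 13 pooled regions, the 10 outside the optimal list had signal values from 17.8 to 38.5, with a median of 24.3, against a median of 24.7 over all 29228 such regions. Of these 10, 3 overlapped a region in both replicate lists (30%), against 40.3% of all pooled regions outside the optimal list. All 3 optimal ones were present in both, as were 766 of the 772 optimal regions. The optimal list came from a reproducibility filter on these same replicates, so presence in both largely follows from that selection. The AP2 stretches held a median of 0.432 pooled regions per kb, against 0.275 over all protein-coding genes, of which 13114 of 19985 had any. Over the 36 other endocytosis and adaptor genes described below the median was 0.493, so the AP2 value was not particular to AP2. Outside the 3 promoter regions, the values at the AP2 genes were thus close to those of such regions elsewhere.

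The replicates placed the summits close together. The summits of the 2 replicates were 22 bp apart at *dpy-23*, 45 bp at *apa-2*, 74 bp at *apb-1* and 23 bp at the promoter region of *aps-2*. Over the 766 optimal regions the median gap was 28 bp (quartiles 11 and 56 bp). The gap at *apb-1* was thus beyond the upper quartile, and those at *dpy-23* and *apa-2* were within the quartiles.

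**Figure D2:**
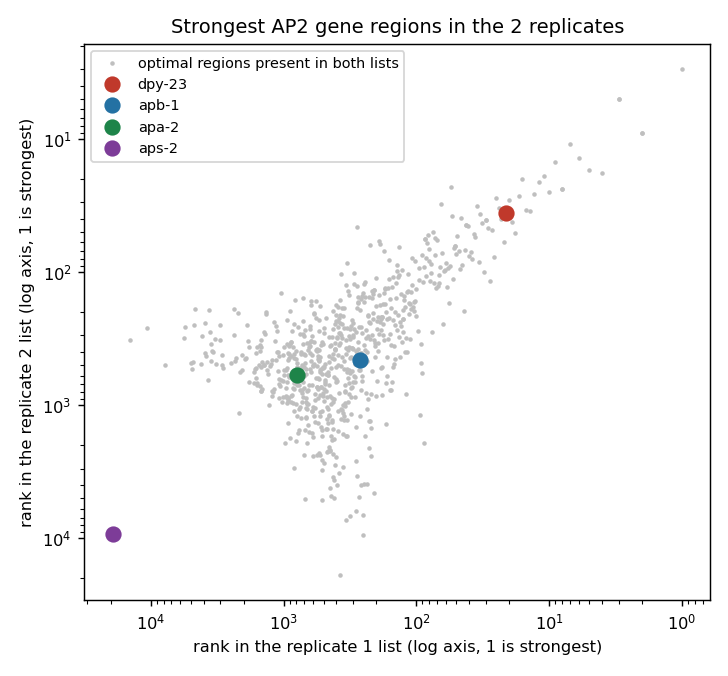
Rank of the strongest pooled promoter region of each AP2 gene in the replicate 1 list (x axis) and the replicate 2 list (y axis), both on log axes with rank 1 as the strongest at the upper right; grey dots are the 766 optimal regions present in both lists. *dpy-23* stands at ranks 21 and 36, *apb-1* at 267 and 459, *apa-2* at 798 and 598, and *aps-2*, with no optimal region, at 19331 and 9325.

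The sequences of *dpy-23*, *apa-2* and *aps-2* differ. In the 300 bp around the summit, GC content was 53.7% at *dpy-23*, 50.3% at *apa-2* and 45.3% at *aps-2*. The median was 44.3% over the 772 optimal regions (quartiles 38.7 and 49.0%) and 41.3% over all pooled regions (quartiles 37.3 and 45.3%). *dpy-23* was thus richer in GC than 90.4% of optimal regions, *apa-2* than 79.1% and *aps-2* than 54.7% of them. The order depended on the length read: in 500 bp the GC content was 46% at *apa-2* and 42.8% at *dpy-23*, and in a narrow window around the summit it was 57.4% at *apa-2* and 50.5% at *dpy-23*. The count of CG dinucleotides was 25 at *dpy-23*, 27 at *apa-2* and 17 at *aps-2*, against a median of 16 in optimal regions (quartiles 13 and 19) and 12 in all pooled regions.

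The sequence at *dpy-23* held more GA repeats than those of *apa-2* and *aps-2*. GAGAG, counted on both strands with overlapping matches, occurred 6 times in its 300 bp around the summit and 4 times in the narrow window at its centre. *apa-2* had 3 matches, all in the narrow window, and *aps-2* had none in the 300 bp. At least 1 match in 300 bp was present in 66.3% of optimal regions and 46.3% of all pooled regions, and in the narrow window in 42.0% of optimal and 22.3% of all pooled regions. Counts as high as that of *dpy-23* occurred in 74 of the 772 optimal regions (9.59%) and in 3.21% of all pooled regions. The printed *dpy-23* region, which begins a few bases earlier, holds 7 matches, all upstream of the summit, and the nearest starts at base 146 against the summit at base 156. In that of *apa-2* the match that starts at base 150 covers the summit.

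The other motifs were rare in the 3 windows. CANNTG, the E-box, occurred once, at base 167 of the printed *dpy-23* sequence, and was present in 65.8% of optimal and 70.4% of all pooled windows. No window held CCGCCC, a GC box (16.8% of optimal and 9.33% of all pooled windows), or TATAAA, the TATA box (21.4% of optimal and 19.6% of all pooled windows). None held CACGTG, a form of the E-box and so a subset of CANNTG (4.79% and 6.58%), or TGACGTCA, the cyclic AMP response element (1.55% and 2.04%). GTTCGANNC, the core of the B box inside tRNA genes, was also in none of the 3, against 18.7% of optimal and 3.31% of all pooled windows. The nearest tRNA, snoRNA, snRNA, rRNA or microRNA gene was 20677 bp from the summit of *dpy-23*, 35105 bp from that of *apa-2* and 12989 bp from that of *aps-2*.

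Other genes were looked up from a list of 36 for clathrin-mediated endocytosis, endosomal recycling and the adaptors AP1 and AP3. The list was drawn up with earlier results of these data known. Of the 36, 35 had a pooled region and 5 held an optimal one (13.9%, against 5.12% of all protein-coding genes). Their stretches were also longer, with a median of 7.75 kb against 4.03 kb over all genes and 6.34 kb over the AP2 genes. The strongest pooled region had a median signal value of 41.7 over the 35 genes, against 30.7 over all protein-coding genes with a region. The median over the 4 AP2 genes, 92.5, is a description only, as *dpy-23* was chosen by its signal value.

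Among the accessory proteins and cargo adaptors that work with AP2, 3 of 11 genes held an optimal region, and 1 of these was in the gene's own promoter. It was *epn-1*, the epsin gene, with a region 396 bp upstream (signal value 148 and rank 143 in the pooled list, 80.0 in replicate 1 and 69.6 in replicate 2). The region of *unc-41*, the stonin gene, had a pooled value of 177 (87.7 in replicate 1 and 86.6 in replicate 2) but lay in an intron, 19 bp from the snoRNA gene *C27H6.5*. That of *fcho-1*, whose product acts when clathrin pits start to form, had a pooled value of 119 (67.6 in replicate 1 and 53.2 in replicate 2), with its summit past the 3′ end of the gene, in the promoter window of *vig-1*.

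Of 9 genes of membrane bending, scission and uncoating, 1 held an optimal region, *hsp-1*, the cytosolic Hsp70 that strips clathrin coats and also folds many other proteins, 368 bp upstream (pooled signal value 99.5, with 50.3 in replicate 1 and 53.7 in replicate 2). Of 6 endosome and recycling genes 1 did, *arf-6*, a small GTPase gene, 168 bp upstream (81.0, with 41.2 in replicate 1 and 35.9 in replicate 2), in a window shared with *Y116A8C.9*. The region of *arf-6* was outside the stronger 386 optimal regions and, at rank 776, outside the 772 strongest of replicate 2. Clathrin itself had none: the strongest pooled region had a signal value of 60.7 at the light chain gene *clic-1* and 20.9 at the heavy chain gene *chc-1*. The 4 genes particular to AP1 had none, with values from 28.3 at *apm-1* to 52.9 at *aps-1*. The 4 genes of AP3, the adaptor of lysosome-related organelles, had none either, with values from 35.6 at *apd-3* to 52.5 at *apb-3*. An optimal region was held by 5.12% of all protein-coding genes. With so few genes in each group, these counts do not set the groups apart from that share or from AP2.

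**Figure D3:**
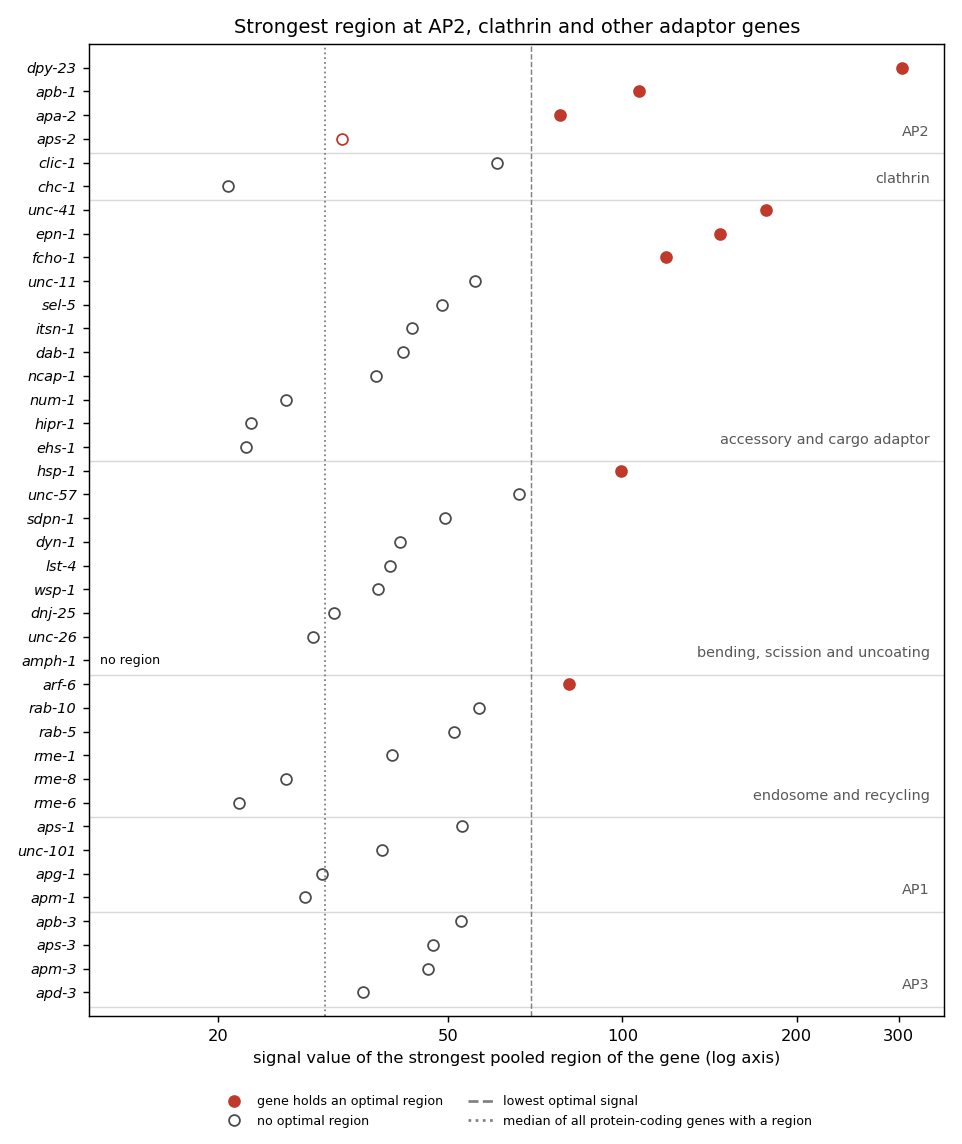
Signal value of the strongest pooled region (x axis, log) at each AP2 gene and each gene of the endocytosis and adaptor list, by role: filled circles are genes that hold an optimal region, open circles those that do not, the dashed line is the lowest optimal value (69.6) and the dotted line the median over all protein-coding genes with a region (30.7). *dpy-23* has the highest value of the 40 genes, 304, and *amph-1* has no pooled region.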

How the data were processed

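Chromatin immunoprecipitation with sequencing was analysed for 2 biological replicates of 1 group, per the labels. The 4 ce11 region lists were used: replicate 1, replicate 2, both pooled, and the optimal list, which per the deposited file records was derived from the others; the others were made from alignments with a control alignment. The aligner, peak caller and settings were not given in the sources used here. Each region's signal value, its −log10 q-value and its summit offset are the authors' deposited values. The −log10 q-value sat at a ceiling of 3.03 in 536 optimal regions and was not used for ranking. The ce10 lists were not used here.

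Positions are 1-based. Regions were placed by an overlap of at least 1 bp with Ensembl release 115 genes (WBcel235), with Python 3.11.15 and pandas 2.3.3. Ranks are by signal value within a list. Motifs were searched on both strands of RefSeq sequence, in 300 bp and in a narrow window of 101 bp. The promoter sequence of *apb-1* is not reported here. Stretches of similar length were within 1.25 times. Placing, ranking and motif search were tested on simulated data. There is no test: members, lists and motifs were chosen with earlier results of these data known, and counts stand beside the same counts over all regions or genes. Genes were named by a rule: the AP2 genes, list genes with an optimal region, neighbours by position or promoter rank, and *madf-2*. *clic-1*, *chc-1*, *amph-1* and the AP1 and AP3 genes named were chosen after their values were seen, as was the threshold on GAGAG counts. Alternatives were other windows, placing by summit, merged regions, single replicates, a stricter threshold and other sequence lengths.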

Additional observations from a re-analysis of the deposited data

How the results depend on the processing

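The 3 AP2 genes with an optimal region were also found with the promoter window, with 5000 bp upstream, by summit and after merging. With the stronger 386 optimal regions, and with the 772 strongest of replicate 1 alone, *apa-2* was lost and 2 genes had one. With replicate 2 alone there were 3. Of the 5 list genes, *arf-6* was lost with the stronger 386 and with replicate 2 alone, which left 4. Placing by summit also left 4, without *fcho-1*, and 5000 bp upstream gave 6. With single replicates the percentile of the strongest region ranged from 99.87 to 99.93 at *dpy-23*, 98.32 to 99.11 at *apb-1* and 97.34 to 97.81 at *apa-2*. At *aps-2* it was 66.21 in replicate 1, for the intron region, and 65.90 in replicate 2, for the promoter region. The replicates thus did not share a strongest region there. The promoter region stood at 35.56 in replicate 1 and the intron region at 24.95 in replicate 2. After merging, the pooled percentile of *aps-2* was 74.60. The *dpy-23* summit was 233 to 255 bp upstream. In the promoter window there were 5 pooled regions in place of 13, and 3 list genes in place of 5, since *unc-41* and *fcho-1* have their summits outside it. GC content in the narrow window was 57.4% at *apa-2* and 51.5% at *aps-2*, and with 500 bp 42.8% at *dpy-23* and 38.8% at *aps-2*. GC content thus depended on the window at all 3 genes, and its order too. In all, 40 of 53 settings kept their value within the spread between replicates, the interval or the 1.5-fold limit. This tally is a loose measure. The fall from 3 to 2 AP2 genes counted as kept under the 1.5-fold limit. For the percentiles, the promoter, 5000 bp and summit settings picked the same region as the main one, so the values were identical. Depth is unknown from these lists. No paired analysis was possible because there is 1 group.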
